A study of Zea mays with 72 samples.

Results

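A set of 200 maize genes whose RNA climbed stepwise from the mature leaf to the youngest leaf examined is described here. The set was selected on untreated control leaves alone. For each gene, CPM (the gene's count as a share of the library total, scaled to a fixed total) were averaged over the 6 control libraries of a leaf and 0.5 was added. A gene qualified when its leaf 6 mean was at least 10 CPM and its value was at least 2 times higher in leaf 5 than in leaf 4, and again in leaf 6 than in leaf 5. Of 32235 genes with values, 549 qualified, and the 200 with the largest ratio of leaf 6 to leaf 4 were taken, which left 349 below them. The reference table held 198 of the 200: 196 were protein-coding, 1 was a long non-coding RNA gene and 1 a transcribed pseudogene. A gene name was given for 20 members, and the other 180 had only a locus number.

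The study asked how mature and immature leaves of maize seedlings respond to a volatile and to a peptide. Seedlings of the inbred line B73 at the V4 stage were cut, and leaf 4 (mature, with its sheath removed) and leaves 5 and 6 (immature) were separated, kept in water and left to recover and acclimate for at least 2 h each. Detached leaves were exposed to ZmPep3, a plant elicitor peptide, at about 1 µM in the water for 2 h, or to (Z)-3-hexenyl acetate (HAC), a volatile released by wounded leaves, from dispensers for 30 min or 2 h, or were left as controls. Whole leaves were frozen, with 6 biological replicates for each of the 12 combinations of leaf and treatment. All groups share the cutting and a recovery in water. Total time after cutting is not given by group. It may differ between HAC for 2 h and for 30 min, beside the exposure.

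A grass leaf grows from its base, where cells divide, then elongate, and then lay down secondary walls and mature their chloroplasts, so leaves of successive position on 1 seedling sample different stages of this programme. Elongation needs wall loosening by expansins and remodelling by xyloglucan enzymes, and laccases and class III peroxidases oxidise lignin precursors in walls that are being stiffened. Young grass tissue is also guarded by constitutive defences, among them benzoxazinoids and proteinase inhibitors, which are further induced by wounding and by elicitor peptides.

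Library totals ran between 26212027 and 31052273 counts, with a median of 29911694. The median correlation of a library with the others of its group ran from 0.945 to 0.978 over log2 CPM, and the lowest pair were leaf 6 control libraries 6 and 5. The leaves were whole, so fewer cells of a type and less RNA per cell cannot be told apart. Some marker lists moved along the same leaf axis in controls. The 3 senescence genes (see1, see2a and see2b) summed to 3254 to 3665 CPM in leaf 4, 1714 to 2139 CPM in leaf 5, then 437 to 802 CPM in leaf 6. The 7 light-harvesting genes summed to 17504 to 23763 CPM in leaf 4, 37449 to 44882 CPM in leaf 5, then 37823 to 45930 CPM in leaf 6. The 7 histone genes summed to 633 to 762 CPM in leaf 4, 644 to 805 CPM in leaf 5, then 1020 to 1395 CPM in leaf 6. Lists of cyclins, tubulins and growth-regulating factors did not rise with them. In leaves 4, 5 and 6, 17 cyclin and KRP genes summed to 124 to 160, 143 to 194 and 133 to 175 CPM. The 16 tubulins summed to 2284 to 2720, 1934 to 2661 and 1607 to 2452 CPM. The 20 growth-regulating factors and partners summed to 553 to 682, 367 to 415 and 300 to 387 CPM. The 16 YABBY, KNOX and ligule genes did rise, at 55.2 to 64.7, 72.8 to 93.6 and 82.8 to 106 CPM. Of the 9 tested, 2 rose at both steps after ZmPep3, 4 after HAC for 30 min and 5 after HAC for 2 h. None fell at both. The meristem gene kn1 did not exceed 0.363 CPM in any library. The part of these differences in the results was not tested.

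In the controls that chose them, the 200 members were close to silent in leaf 4 and abundant in leaf 6, as a description of the selection and not a result. Their median control mean was 0.319 CPM in leaf 4, 13 CPM in leaf 5 and 58.1 CPM in leaf 6. In leaf 4, 143 members averaged below 1 CPM and 16 had no count in any control library, while 63 exceeded 100 CPM in leaf 6. The first step was the larger in 166 members: the ratio of leaf 5 to leaf 4 had a median of 11.8 (2.13 to 277), and the ratio of leaf 6 to leaf 5 had a median of 4.21 (2.05 to 26.7). The ratio of leaf 6 to leaf 4 ran from 23.9 to 1610 with a median of 46.9. Members just inside the rank limit had ratios of 24.1, 24.1 and 23.9, and genes just outside it had 23.4, 23.2 and 22.9. The smallest leaf 5 to leaf 4 ratios among members were 2.47, 2.44 and 2.13, against 1.86 and 1.57 in the nearest genes outside that threshold. The smallest leaf 6 to leaf 5 ratios were 2.09, 2.05 and 2.05, against 1.99, 1.95 and 1.95 outside it.

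**Figure D1:**
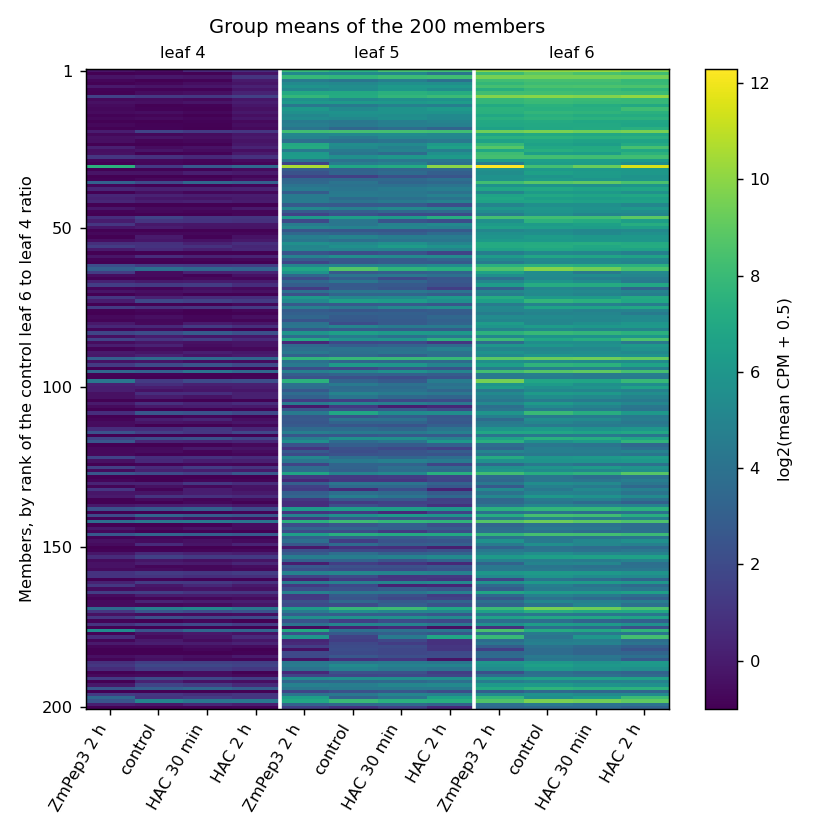
Colour gives log2(mean CPM + 0.5) over 6 libraries for each of the 200 members (vertical axis, by rank of the control ratio of leaf 6 to leaf 4) in the 12 groups (horizontal axis, by leaf and treatment). Nearly all members darken in leaf 4 and brighten in leaf 6 in every treatment, and the 1 bright line at rank 31 is LOC100284823.

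Together the members took a small share of a leaf 4 library and more than 2% of a leaf 6 library. In control leaves they summed to 0.0204 to 0.0375% of the counts in leaf 4, 0.513 to 0.758% in leaf 5 and 2.13 to 2.60% in leaf 6. Libraries treated with ZmPep3 for 2 h gave 0.0339 to 0.0533% in leaf 4, 0.641 to 0.873% in leaf 5 and 2.25 to 2.82% in leaf 6. After HAC for 30 min the sums were 0.0230 to 0.0398%, 0.548 to 0.722% and 2.04 to 2.37% in leaves 4, 5 and 6. After HAC for 2 h they were 0.0209 to 0.0301%, 0.545 to 0.915% and 2.31 to 2.56%. The 3 leaves did not overlap in any treatment. The higher sums of ZmPep3-treated leaf 4 rested on 1 member, the unnamed LOC100284823, singled out after its values were seen. It held a median of 43.5% of the members' counts there, against 0.374% in leaf 4 controls. Without it the sum was 0.0243 to 0.0280% in ZmPep3-treated leaf 4, within the range of 0.0197 to 0.0375% in leaf 4 controls. The same member held medians of 21.9% and 19.3% of the members' counts in leaves 5 and 6 after ZmPep3. After HAC for 2 h these were 15.5% and 11.8%. Without it the leaf 6 sums were 1.84 to 2.30% after ZmPep3 and 2.04 to 2.23% after HAC for 2 h. Leaf 6 controls without it had 2.10 to 2.58%.

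**Figure D2:**
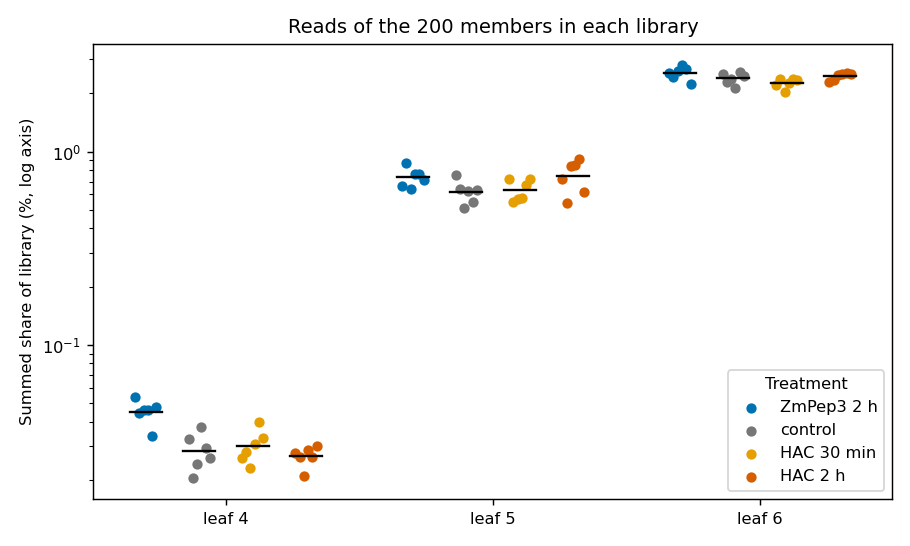
Summed counts of the 200 members as a percent of each library's total (log axis), for leaves 4, 5 and 6, with each point 1 library, black bars at group means of 6 libraries and colours for the treatments. The 3 leaves form separate levels, at 0.0204 to 0.0533% in leaf 4, 0.513 to 0.915% in leaf 5 and 2.04 to 2.82% in leaf 6.

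Per transcript length, members differed in leaf 6 controls from 5.59 to 1453 FPKM (fragments scaled to transcript length and to depth), with a median of 46.2. Among members with a gene name, gar2, grouped with gibberellin genes by its symbol, was highest at 974 ± 251 FPKM (SD, n = 6). The xyloglucan endotransglucosylase/hydrolase xth1 was next, at 515 ± 29.9 FPKM, then the wound-induced proteinase inhibitor wip1 with 329 ± 87.8 FPKM and the protochlorophyllide reductase pcr1, which carries out the light-dependent step of chlorophyll synthesis, with 316 ± 52.8 FPKM, which did not differ beyond their spread. Laccase-13 (158 ± 35.2 FPKM) and the permease LPE1 (135 ± 20.6 FPKM) did not differ beyond their spread. At the low end stood PER66 (12.3 ± 3.91 FPKM) and lac5 (7.92 ± 2.57 FPKM). Of all 200, 25 had non-whole counts in more than 10% of their values, as RSEM divides reads between similar genes, among them xth1 (70.8% of values), ZmMYB42 (54.2%) and EXPA5 (31.9%), so their levels are uncertain. In the gene order of the NAM-5.0 assembly, 8 pairs of members, holding 15 genes, were direct neighbours.

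The 54 treated libraries played no part in the selection, so the leaf order was tested there. Each leaf step was fitted across all 25205 genes that passed the low-count filter, all 200 members among them, with edgeR's quasi-likelihood test and Benjamini-Hochberg adjustment at 0.05. After ZmPep3, 190 of 200 members rose at both steps, against 14.6% of all genes tested. After HAC for 30 min 192 members rose at both steps, against 13.2% of all genes, and after HAC for 2 h 195 did, against 13.3%. In all 3 treatments 184 members rose at both steps, against 8.76% of all genes. Of the 349 qualifying genes below the 200, 336 rose at both steps after ZmPep3, 339 after HAC for 30 min and 327 after HAC for 2 h. Genes falling at both steps made up 11.4%, 13.1% and 13.8% of all genes after ZmPep3, HAC for 30 min and HAC for 2 h, and no member was among them. No member was lower at either step in any treatment, at an adjusted or an unadjusted p under 0.05, by edgeR or by DESeq2.

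Taken singly, the step of leaf 5 over leaf 4 was passed upward by 195 members after ZmPep3 (33.1% of all genes), 196 after HAC for 30 min (30% of all genes) and 198 after HAC for 2 h (30.2% of all genes). For leaf 6 over leaf 5 the counts were 195 after ZmPep3 (21.8% of all genes), 196 after HAC for 30 min (21.3%) and 197 after HAC for 2 h (20.1%). The members' median log2 fold change of leaf 5 over leaf 4 was 5.56, 5.48 and 5.50 after ZmPep3, HAC for 30 min and HAC for 2 h, where the medians of all genes lay between 0.01 and 0.07. With members absent from every leaf 4 library of a treatment set at the bound that 3 counts over the group allow, these medians were 5.49, 5.48 and 5.48. For leaf 6 over leaf 5 the members' medians were 2.06, 2.03 and 1.92, and those of all genes lay between -0.06 and -0.04. The 6 libraries of each leaf were fully separated at both steps in 176 members after ZmPep3 (5.13% of all genes), 168 after HAC for 30 min (4.32%) and 168 after HAC for 2 h (4.55%).

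**Figure D3:**
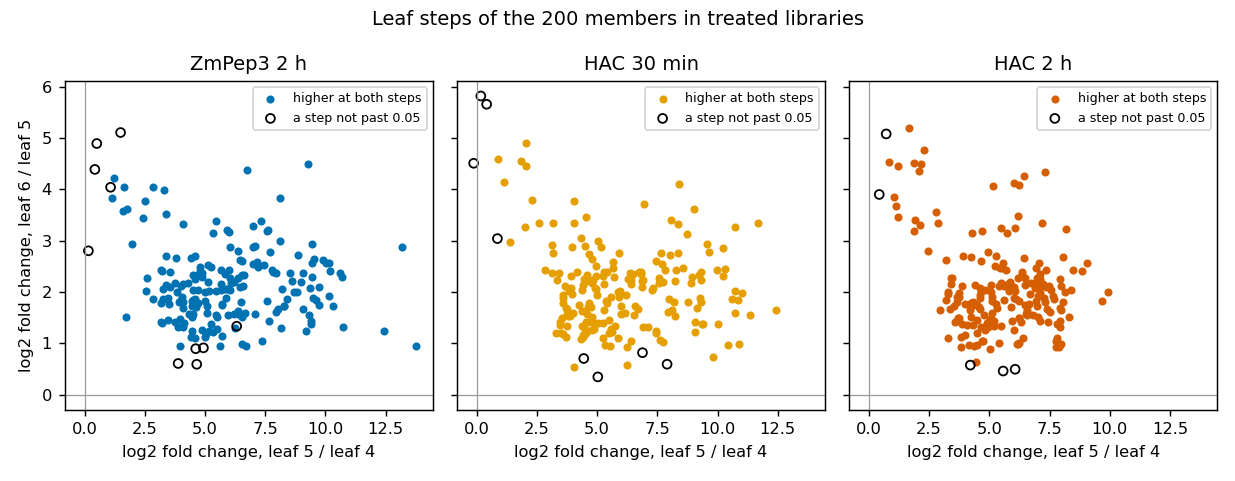
Log2 fold change of leaf 6 over leaf 5 (vertical axis) against leaf 5 over leaf 4 (horizontal axis) for each of the 200 members, in 1 panel per treatment. Filled points passed both steps upward at adjusted p 0.05 (190, 192 and 195 from left to right), and open circles missed a step.

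Among members tied to growth and the wall, gar2 had the widest span. Its CPM after ZmPep3 was 0.0337 to 0.736 (median 0.203) in leaf 4, 188 to 313 (median 222) in leaf 5 and 566 to 1061 (median 722) in leaf 6. The leaves did not overlap, and the step of leaf 5 over leaf 4 reached 9.75 ± 0.42 on the log2 scale (± SE, edgeR adjusted p = 1.01e-24), followed by 1.74 ± 0.28 for leaf 6 over leaf 5 (adjusted p = 8.12e-07). The xyloglucan enzyme xth1, which cuts and rejoins wall hemicellulose, had 5.62 to 19.9 CPM (median 9.26) in leaf 4, 134 to 429 CPM (median 218) in leaf 5 and 516 to 592 CPM (median 552) in leaf 6 after HAC for 2 h. Its steps were 4.81 ± 0.33 and 1.25 ± 0.28 on the log2 scale, without overlap of the leaves. The other xyloglucan gene tested, xet1, also rose at both steps in every treatment. EXPA5, an alpha-expansin that loosens walls, had 1.60 to 2.63 CPM (median 1.86) in leaf 4, 27.4 to 63.3 CPM (median 33.5) in leaf 5 and 80.1 to 106 CPM (median 102) in leaf 6 after HAC for 2 h, again without overlap. All 3 genes rose at both steps in every treatment.

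Lignin-related members followed the same order at different heights. Laccase-13 had 0.380 to 2.94 CPM (median 1.29) in leaf 4, 30.6 to 128 CPM (median 64.8) in leaf 5 and 258 to 338 CPM (median 305) in leaf 6 after HAC for 2 h. Laccase-17 had 0.274 to 2.74 CPM (median 0.606), 12.4 to 40.3 CPM (median 35.3) and 102 to 175 CPM (median 139) in the same 3 leaves. In lac5 the counts were lower: 0 to 0.484 CPM (median 0.137) in leaf 4, 2.01 to 5.84 CPM (median 4.58) in leaf 5 and 8.99 to 18.9 CPM (median 12.7) in leaf 6. None of these 3 overlapped between leaves after HAC for 2 h. In the other treatments lac5 overlapped between leaves 6 and 5, at 6.75 to 12.6 CPM in leaf 6 against 2.04 to 8.28 CPM in leaf 5 after ZmPep3, and 12.7 to 19.7 CPM in leaf 6 against 3.85 to 13.9 CPM in leaf 5 after HAC for 30 min. The peroxidase PER66 had no count in any of the 24 leaf 4 libraries. It averaged 0.440 CPM in leaf 5 after ZmPep3, at least 26.2-fold above the bound that 3 counts over the 6 leaf 4 libraries allow, and at least 76.2-fold and 35.6-fold above it after HAC for 30 min and 2 h. Of the 12 laccases in the table, some of which share a name, 3 were members and 3 more qualified below the 200. Rises at both steps were found for 7 laccases after ZmPep3, 8 after HAC for 30 min and 8 after HAC for 2 h. For the 11 tested expansins the rises at both steps numbered 4, 3 and 5 in the same order of treatments. Beside EXPA5, the genes rising at both steps after ZmPep3 were expB3, expB4 and expB8, by 2.61, 0.92 and 0.74 on the log2 scale in leaf 6 over leaf 5 (adjusted p = 0.0064, 0.00332 and 0.00309). By contrast expa1 gained 7.18 on the log2 scale in leaf 5 over leaf 4 (adjusted p = 4.33e-16) but 0.25 in leaf 6 over leaf 5 (adjusted p = 0.623). Of the 5 tested class III peroxidases named as such, PER66 and PER70 rose at both steps in every treatment. PER42 fell at both steps after HAC for 30 min (-0.68 and -2.51) and HAC for 2 h (-0.96 and -2.65). After ZmPep3 it fell by 1.38 in leaf 6 over leaf 5, and its first step did not pass (-0.27, adjusted p = 0.323).

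The chlorophyll gene pcr1 and the metabolic gene mas1 had their larger step between leaves 5 and 6. For pcr1, HAC for 2 h gave 5.29 to 16.1 CPM (median 9.86) in leaf 4, 17 to 69 CPM (median 26.3) in leaf 5 and 289 to 372 CPM (median 333) in leaf 6. Its step of leaf 6 over leaf 5 was 3.40 ± 0.29 on the log2 scale (edgeR adjusted p = 7.87e-14), and that of leaf 5 over leaf 4 was 1.93 ± 0.28. Malate synthase mas1, an enzyme of the glyoxylate cycle, had 0.0691 to 0.796 CPM (median 0.328), 0.468 to 1.70 CPM (median 1.49) and 19.3 to 49.1 CPM (median 26) in leaves 4, 5 and 6 of the same treatment, with steps of 2.17 ± 0.55 and then 4.49 ± 0.45. LPE1, a leaf permease of the nucleobase-ascorbate transporter family, had its larger step early, at 7.48 ± 0.36 and then 2.11 ± 0.25. It had 0.0694 to 1.03 CPM (median 0.258), 26.4 to 90.5 CPM (median 46.9) and 202 to 262 CPM (median 225) in leaves 4, 5 and 6 after HAC for 2 h. Of the 7 light-harvesting genes, none a member, 3 rose at both steps after ZmPep3, 2 after HAC for 30 min and 2 after HAC for 2 h. For the 9 genes of C4 and Calvin cycle enzymes, none a member, these counts were 3, 1 and 2.

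Transcription factors among the named members were 2 MYB genes, 1 MYB-related gene and 1 bHLH gene. MYB164 had no count in leaf 4 after ZmPep3, 1.40 to 3.85 CPM (median 3.34) in leaf 5, at least 175-fold above the 3-count bound, and 17.3 to 23.2 CPM (median 21.1) in leaf 6. MYBR115 had 0.272 to 1.57 CPM (median 0.605), 9.04 to 23.0 CPM (median 14.7) and 45.8 to 73.8 CPM (median 56.8) in leaves 4, 5 and 6 after ZmPep3. After the same treatment bHLH53 had 0.0335 to 0.509 CPM (median 0.0837), 5.48 to 10.8 CPM (median 7.57) and 26.3 to 32.1 CPM (median 27.8). None of these 3 overlapped between leaves after ZmPep3. ZmMYB42, also listed as MYB38_1 and myb42, whose product lowers lignin genes when expressed in Arabidopsis, did not keep the first step. After HAC for 30 min it had 0.666 to 1.49 CPM in leaf 4 (median 0.918) and 0.265 to 0.958 CPM (median 0.789) in leaf 5, which overlapped, before 10.5 to 19.9 CPM (median 17) in leaf 6. Of 51 tested MYB and MYB-related genes, 10 rose and 4 fell at both steps after ZmPep3, 8 rose and 4 fell after HAC for 30 min, and 13 rose and 4 fell after HAC for 2 h. Of 40 tested bHLH genes, 3 rose and 5 fell after ZmPep3, and 5 rose and 2 fell after either HAC exposure.

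BX14, an O-methyltransferase late in the benzoxazinoid pathway, had 10.2 to 35 CPM (median 15.6) in leaf 4, 114 to 224 CPM (median 174) in leaf 5 and 404 to 895 CPM (median 782) in leaf 6 after ZmPep3, without overlap. After HAC for 30 min it had 0.764 to 5.71 CPM (median 3.98), 1.38 to 15 CPM (median 4.88) and 37.1 to 162 CPM (median 114), so leaves 5 and 4 overlapped although the step passed the test (1.15 ± 0.46 on the log2 scale, adjusted p = 0.0298). With library totals in place of TMM, or without leaf 4 HAC 30 min libraries 5 and 6, this step no longer passed (0.85 on the log2 scale in both). After HAC for 2 h leaves 5 and 4 also overlapped, at 10.8 to 34.9 CPM in leaf 5 against 0.718 to 12.9 CPM in leaf 4. Of 11 benzoxazinoid genes, 6 fell at both steps after ZmPep3, 7 after HAC for 30 min and 2 after HAC for 2 h, while 2, 2 and 1 rose. The genes that rose were BX14, and BX13, which acts upstream of it in the pathway, after ZmPep3 and HAC for 30 min. The first gene of the pathway, bx1, fell by 1.87 in leaf 5 over leaf 4 and by 2.23 in leaf 6 over leaf 5 on the log2 scale after ZmPep3 (adjusted p = 0.000124 and 1.86e-05).

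Other members on the defence side were wip1, TPS20-Del and Ann9. Expression of wip1 after ZmPep3 was 22.8 to 59.2 CPM (median 44.8) in leaf 4, 86.2 to 190 CPM (median 124) in leaf 5 and 154 to 460 CPM (median 379) in leaf 6. Leaves 5 and 4 did not overlap there, but leaf 6 overlapped leaf 5 through its lowest library. After HAC for 30 min the first step of wip1 did not pass (0.86 ± 0.40, adjusted p = 0.0657). After HAC for 2 h that step passed, but the leaves overlapped, at 5.25 to 37.0 CPM in leaf 5 against 2.45 to 29.4 CPM in leaf 4. The terpene synthase gene TPS20-Del had 0.0684 to 1.42 CPM (median 0.361), 14 to 23.2 CPM (median 18.5) and 88.4 to 114 CPM (median 101) in leaves 4, 5 and 6 after HAC for 2 h. Ann9, an annexin of the calcium-dependent phospholipid-binding family, had in the same leaves after ZmPep3 6.89 to 18.6 CPM (median 8.69), 53.3 to 109 CPM (median 87.1) and 200 to 225 CPM (median 214). Neither overlapped between leaves in these treatments. Of 8 tested annexins, Ann9, Ann8 and Ann5 rose at both steps in every treatment, while Ann3 fell at both after HAC for 30 min and Ann6 after ZmPep3. Of 12 wound and proteinase inhibitor genes, 3 rose and 2 fell at both steps after ZmPep3, 2 rose and 2 fell after HAC for 30 min, and 3 rose and 2 fell after HAC for 2 h. Of 19 tested terpene synthases, 5 rose and 3 fell after ZmPep3, 6 rose and 4 fell after HAC for 30 min, and 5 rose and 3 fell after HAC for 2 h.

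Both unnamed members at the top of the ranking rose at both steps in every treatment. LOC542000, the member with the largest control ratio, had 0.0337 to 0.836 CPM (median 0.217) in leaf 4, 182 to 342 CPM (median 239) in leaf 5 and 661 to 1882 CPM (median 909) in leaf 6 after ZmPep3. LOC100285608, the second in rank, had no count in leaf 4, 23.8 to 64.9 CPM (median 33.4) in leaf 5 and 132 to 463 CPM (median 258) in leaf 6 after ZmPep3. After HAC for 2 h its leaves 5 and 4 overlapped, at 0.684 to 31.9 CPM in leaf 5 against 0 to 1.36 CPM in leaf 4. Its neighbour LOC100278647 was also a member, and 94.3% of the values of LOC100285608 were not whole, so its reads are shared with similar genes.

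Named members missing a step were ZmMYB42, wip1 and GB1. At leaf 5 over leaf 4, ZmMYB42 had 0.16 ± 0.35 on the log2 scale after ZmPep3 (adjusted p = 0.718) and -0.13 ± 0.39 after HAC for 30 min (adjusted p = 0.802). After HAC for 2 h it passed narrowly (1.03 ± 0.42, adjusted p = 0.0353), and it did not with library totals (0.74), all 72 libraries (1.01), no filter (0.96) or without leaf 4 HAC 30 min libraries 5 and 6 (0.96). At leaf 6 over leaf 5, GB1 did not pass after ZmPep3 (0.61 ± 0.54, adjusted p = 0.368), with 23.3 to 58.3 CPM (median 32.2) in leaf 6 and 10.0 to 91.8 CPM (median 15) in leaf 5. The 91.8 CPM came from library 6 alone, and the rest of leaf 5 had 10.0 to 16.0 CPM, below every leaf 6 library. The other misses were unnamed.

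At 2 h, ZmPep3 and HAC were compared within each leaf to see whether the set responded differently to the 2 signals. In leaf 4, 14 members were higher after ZmPep3 than after HAC (14.4% of all genes) and 45 lower (20% of all genes). In leaf 5, 9 were higher (14.5% of all genes) and 37 lower (15%). In leaf 6, 4 were higher (13.6%), or 2 without the filter, and 22 lower (6.96%). The share of members called lower was 22.5%, 18.5% and 11.0% in leaves 4, 5 and 6, near that of all genes in leaves 4 and 5. The share called higher was below that of all genes in each leaf, at 7.0%, 4.5% and 2.0% in leaves 4, 5 and 6. In both leaves 5 and 6, 14 members were lower (3.64% of all genes) and 4 higher (10.1% of all genes). Of the 349 qualifying genes below the 200, 108, 94 and 45 were lower (30.9%, 26.9% and 12.9%) and 31, 14 and 10 higher (8.88%, 4.01% and 2.87%) in leaves 4, 5 and 6. The members' median log2 fold change was -0.59, -0.30 and -0.16 in leaves 4, 5 and 6, against -0.09, -0.08 and -0.02 for all genes. In leaf 4, 147 members averaged below 1 CPM over both groups, among them 38 of the 59 called. The balance of calls over all genes moved with scaling in each leaf. With TMM, DESeq2 size factors and library totals in turn, 41.8%, 49.5% and 32.0% of calls were higher in leaf 4, 49.1%, 58.6% and 65.5% in leaf 5, and 66.1%, 57.3% and 72.4% in leaf 6. Among the members called, these shares were 23.7%, 27.8% and 20.3% in leaf 4, 19.6%, 20.5% and 27.5% in leaf 5, and 15.4%, 10.7% and 20% in leaf 6.

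**Figure D4:**
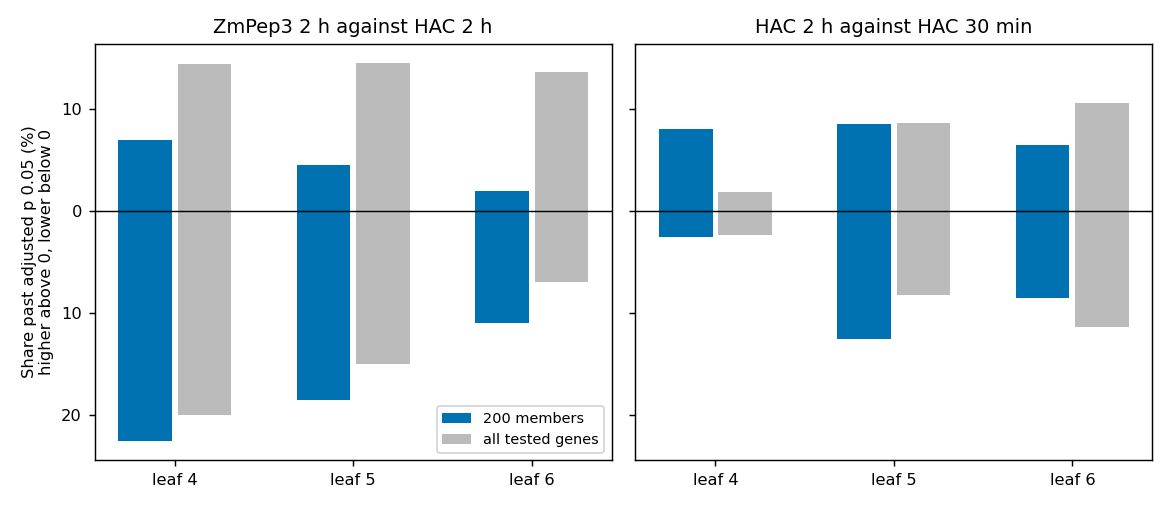
Share past adjusted p 0.05 in each leaf (bars above 0 higher, below 0 lower) for the 200 members (blue) and all 25205 genes tested (grey), with ZmPep3 2 h against HAC 2 h on the left and HAC 2 h against HAC 30 min on the right. After ZmPep3 the members' upper bars are shorter than those of all genes in all 3 leaves.

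Of the named members higher after ZmPep3, BX14 passed in all 3 leaves and wip1 in leaves 4 and 5. BX14 had 10.2 to 35 CPM (median 15.6) after ZmPep3 and 0.718 to 12.9 CPM (median 2.43) after HAC for 2 h in leaf 4, which overlapped. In leaf 5 it had 114 to 224 CPM (median 174) after ZmPep3 and 10.8 to 34.9 CPM (median 24.8) after HAC, and in leaf 6 404 to 895 CPM (median 782) after ZmPep3 and 184 to 291 CPM (median 234) after HAC, with no overlap in either leaf. The log2 fold changes were 2.31 ± 0.46, 2.80 ± 0.45 and 1.61 ± 0.42 in leaves 4, 5 and 6 (edgeR adjusted p = 7.62e-05, 2.3e-06 and 0.00383). It was the only one of the 11 benzoxazinoid genes higher after ZmPep3 than after HAC in leaf 5 or leaf 6, where 7 and 9 of them were lower. In wip1 the difference was 2.18 ± 0.41 in leaf 4 and 2.71 ± 0.42 in leaf 5 (adjusted p = 3.64e-05 and 1.03e-06). In leaf 5 it had 86.2 to 190 CPM after ZmPep3 and 5.25 to 37.0 CPM (median 17.9) after HAC. In leaf 6 the difference was 0.78 ± 0.39 (adjusted p = 0.168).

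Named members lower after ZmPep3 in an immature leaf were MYB164, GFT1, GB1 and EXPA5. MYB164 in leaf 6 had 17.3 to 23.2 CPM (median 21.1) after ZmPep3 and 25.8 to 39.6 CPM (median 29.0) after HAC for 2 h, with no overlap and a log2 fold change of -0.62 ± 0.23 (adjusted p = 0.0453). That call was lost with library totals (-0.58), with all 72 libraries (-0.62) and without leaf 6 ZmPep3 library 6 (-0.59). In leaf 5 its log2 fold change was -1.14 ± 0.25 (adjusted p = 0.000402). GFT1, for which no role is given here, had in leaf 6 8.0 to 12.1 CPM (median 11.2) after ZmPep3 and 20.6 to 33.7 CPM (median 24.4) after HAC (-1.31 ± 0.30, adjusted p = 0.000868), and its leaf 5 value was -1.69 ± 0.36 (adjusted p = 0.000203). GB1 had 23.3 to 58.3 CPM (median 32.2) after ZmPep3 and 58.5 to 186 CPM (median 116) after HAC in leaf 6, without overlap (-1.69 ± 0.55, adjusted p = 0.0207). The log2 fold change of EXPA5 was -0.77 ± 0.28 in leaf 4 and -0.80 ± 0.22 in leaf 5 (adjusted p = 0.0311 and 0.00394), with libraries that overlapped in leaf 5 and not in leaf 4. In leaf 6 it was -0.41 ± 0.21 (adjusted p = 0.185). For xth1, Laccase-13 and Laccase-17 no difference between ZmPep3 and HAC passed in any leaf. ZmMYB42 was higher after ZmPep3 in leaf 4 (1.91 ± 0.40, adjusted p = 0.000137) and in leaf 5 (1.05 ± 0.37, adjusted p = 0.0282). The leaf 5 call was lost without leaf 5 ZmPep3 libraries 1 and 6 (0.85).

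Between 30 min and 2 h of HAC, calls of members ran in both directions in each leaf. In leaf 4, 16 members were higher at 2 h than at 30 min (1.85% of all genes) and 5 lower (2.38% of all genes). Of these 21, 16 averaged below 1 CPM over both groups. DESeq2's Wald test gave 31 higher and 8 lower there, and without leaf 4 HAC 30 min libraries 5 and 6 edgeR gave 2 lower. No share of all genes is given for DESeq2 here or below. In leaf 5, 17 were higher (8.63% of all genes) and 25 lower (8.23%). In leaf 6, 13 were higher (10.6%) and 17 lower (11.3%). Over the 6 time and agent comparisons, 116 of the 200 members passed in at least 1, against 60.9% of all genes.

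Among named members Ann9 had the largest rise with time in leaves 5 and 6. In leaf 6 it had 40.4 to 60.0 CPM (median 46.4) in controls, 64.2 to 115 CPM (median 72.8) after HAC for 30 min and 249 to 277 CPM (median 261) after 2 h. In leaf 5 it had 6.30 to 11.7 CPM (median 9.92) in controls, 11.7 to 30.7 CPM (median 14.7) at 30 min and 74.3 to 132 CPM (median 84.1) at 2 h. In both leaves the 2 h libraries lay above all 30 min libraries, by 1.77 ± 0.21 in leaf 6 and 2.50 ± 0.22 in leaf 5 on the log2 scale (edgeR adjusted p = 2.75e-09 and 6.37e-13). In leaf 4 it had 0.450 to 2.52 CPM at 2 h and 1.80 to 2.47 CPM at 30 min, which overlapped (-0.41 ± 0.26, adjusted p = 0.439). LOC100284823 moved likewise, with 2415 to 3273 CPM (median 2977) at 2 h and 451 to 949 CPM (median 521) at 30 min in leaf 6 (2.30 ± 0.35, adjusted p = 6.71e-07), and 2.81 ± 0.35 in leaf 5 (adjusted p = 1.91e-08). After ZmPep3 it reached 4099 to 5757 CPM (median 5059) in leaf 6.

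Smaller changes with time touched other roles. BX14 was higher at 2 h than at 30 min in leaf 5 (1.90 ± 0.44, adjusted p = 0.00146), with 10.8 to 34.9 CPM at 2 h and 1.38 to 15 CPM at 30 min, which overlapped. In leaf 6 it had 184 to 291 CPM at 2 h and 37.1 to 162 CPM at 30 min, without overlap. Of the pathway, 10 of the 11 benzoxazinoid genes were higher at 2 h in leaf 5 and 8 in leaf 6. The bHLH factor bHLH53 gained 0.82 ± 0.23 in leaf 5 (adjusted p = 0.00874), and TPS20-Del gained 0.81 ± 0.27 in leaf 6 (adjusted p = 0.0231). That rise of TPS20-Del was lost by DESeq2 and without HAC 30 min library 6 of leaves 5 and 6 (0.77). Expression of pcr1 fell by 0.74 ± 0.26 in leaf 5 (adjusted p = 0.0447) and lac5 fell by 0.90 ± 0.31 there (adjusted p = 0.0377). The fall of pcr1 in leaf 5 was lost without the filter (-0.76) and with a replicate block (-0.72), and its libraries overlapped there. In leaf 6 pcr1 had 289 to 372 CPM at 2 h and 474 to 574 CPM at 30 min, without overlap.

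**Figure D5:**
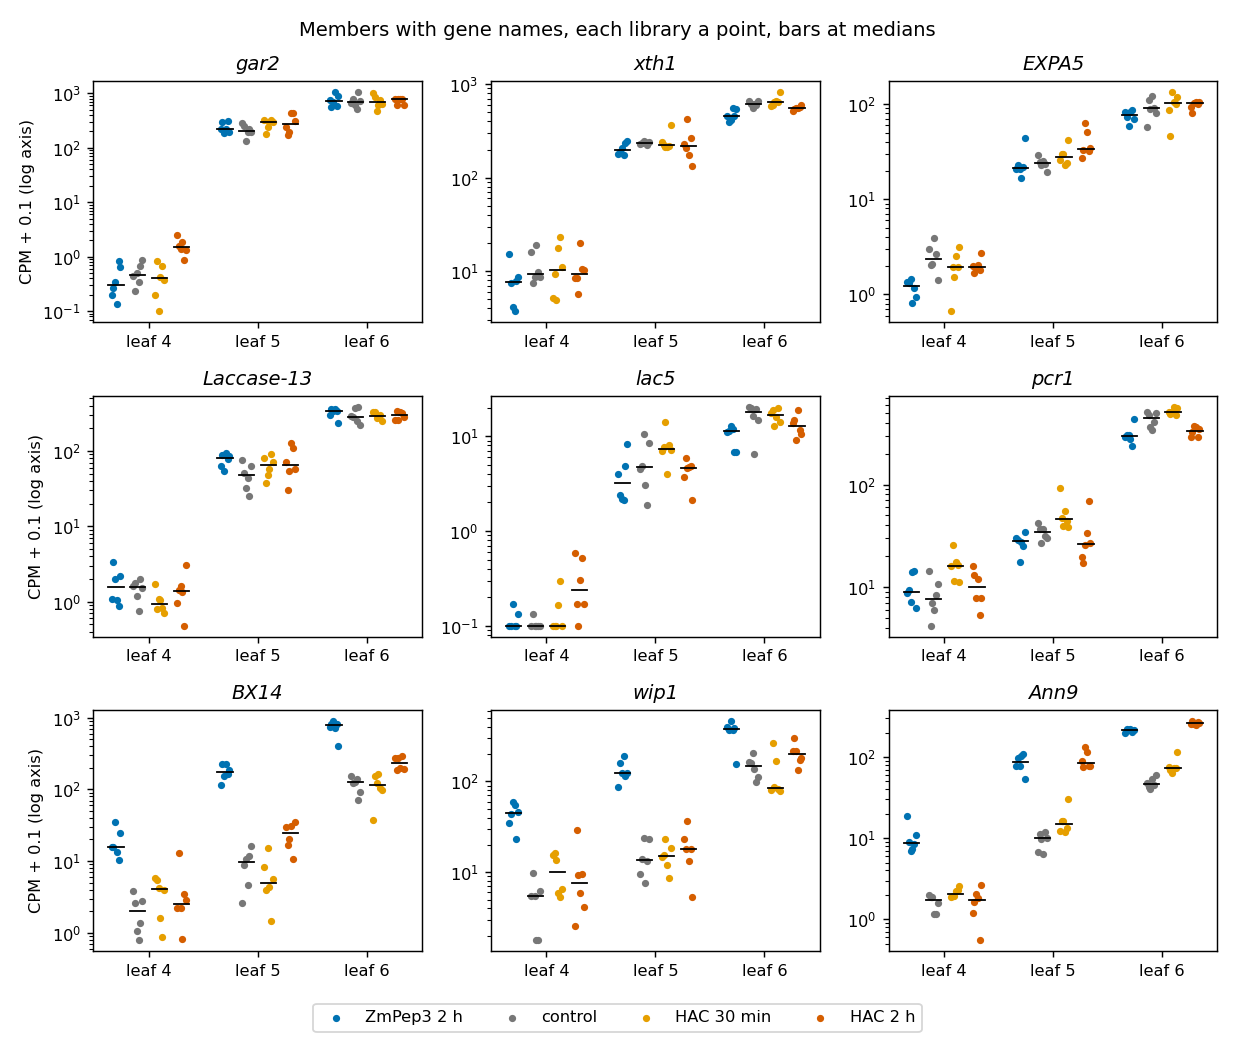
CPM + 0.1 (log axis) of 9 named members in leaves 4, 5 and 6, with each point 1 library, bars at medians of 6 libraries and colours for the treatments. BX14, wip1 and Ann9 shift with treatment within a leaf, while xth1 and Laccase-13 differ mainly between leaves.

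Whether a change differed between the youngest and the mature leaf was tested as leaf 6 minus leaf 4. In leaf 4, 146 members averaged below 1 CPM over both HAC groups, and 147 over the ZmPep3 and HAC 2 h groups. The leaf 4 changes of most members therefore rest on few counts, and a call can arise in leaf 4 alone. For HAC at 2 h minus 30 min, 5 members had the higher change in leaf 6 (6.06% of all genes) and 20 the lower (6.83% of all genes). With all 72 libraries, or without leaf 4 HAC 30 min libraries 5 and 6, 3 were higher, and DESeq2 gave 35 lower. For ZmPep3 minus HAC at 2 h, 17 were higher in leaf 6 (11.3% of all genes) and 11 lower (5.64% of all genes), and DESeq2 gave 26 higher. Scaling moved the balance over all genes in the second: 66.7% of calls were higher with TMM, 51.7% with DESeq2 size factors and 80.3% with library totals, and among the members called that share was 60.7%, 53.8% and 69.7%. Ann9 led the named members, at 2.18 ± 0.33 for time (adjusted p = 2.53e-06) and -3.13 ± 0.32 for agent (adjusted p = 4.79e-10): HAC for 2 h left it low in leaf 4, at 0.450 to 2.52 CPM, where ZmPep3 gave 6.89 to 18.6 CPM. For LOC100284823 the agent value was -3.41 ± 0.48 (adjusted p = 7.89e-07), with 77.6 to 253 CPM after ZmPep3 and 6.99 to 16.9 CPM after HAC for 2 h in leaf 4. In gar2 the difference came from leaf 4 values near 1 CPM: 0.0337 to 0.736 CPM after ZmPep3 and 0.761 to 2.42 CPM after HAC for 2 h, where 30 min of HAC gave 0 to 0.732 CPM. Its values were -2.12 ± 0.50 for time and 2.24 ± 0.51 for agent (adjusted p = 0.002 and 0.0011).

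Set against the controls that chose the members, treated values are a description only and were not tested. The members' median log2 difference from controls was -0.12, -0.12 and -0.22 after ZmPep3 in leaves 4, 5 and 6, 0.00, 0.17 and -0.01 after HAC for 30 min and 0.23, 0.10 and -0.05 after HAC for 2 h. The named members farthest from controls after ZmPep3 were BX14, at 3.43 ± 0.49, 4.33 ± 0.48 and 2.79 ± 0.44 in leaves 4, 5 and 6, wip1, at 3.31 ± 0.44, 3.17 ± 0.42 and 1.43 ± 0.39, and Ann9, at 2.94 ± 0.24, 3.24 ± 0.22 and 2.28 ± 0.21. After HAC for 2 h Ann9 stood at 0.09 ± 0.25, 3.43 ± 0.22 and 2.61 ± 0.21. In leaf 6 after ZmPep3, gar2 stood at 0.19 ± 0.26, Laccase-13 at 0.24 ± 0.26, Laccase-17 at 0.09 ± 0.34 and xth1 at -0.25 ± 0.26.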

How the data were processed

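RNA of 72 whole maize leaves was sequenced as DNBSEQ libraries, per the labels' protocols. Bowtie2, RSEM and the assembly B73 RefGen_v4 are named in the submitters' processing notes, with no versions. Expected counts, the estimates RSEM makes for each gene, are deposited without scaling. The FPKM values deposited beside them were scaled by the authors for length and depth. Of 43547 entries, 11312 were blank and were left out. Expected counts were rounded to whole numbers. Gene names came from a RefSeq table of another assembly, NAM-5.0, which held 30403 of the 32235 genes, and it was used for names, gene types and gene order, with no coordinates. The table gives no descriptions, so the 22 lists of related genes were drawn from gene symbols, after the members were known.

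The 54 treated libraries were fitted with edgeR 4.0.16 in R 4.3.3: filterByExpr, TMM scaling, 1 coefficient per group, robust quasi-likelihood test, Benjamini-Hochberg adjustment over the 25205 genes kept, threshold 0.05. Differences from controls came from a fit of all 72 libraries (25558 genes), without tests. CPM was computed with library totals. The fit was also run on simulated counts, with changes set only in well-counted genes of leaf 6 after HAC for 2 h. The leaf steps were not simulated. Alternatives were DESeq2 1.42.0 (Wald test and size factors), library totals, no filter, all libraries, a replicate block and left-out libraries. Values after ± are SDs over libraries or SEs derived from the edgeR test. These SEs are the absolute log2 fold change divided by the square root of the test's F statistic. They include the spread between libraries. They are approximate, and least reliable where a group is at or near 0 counts. The bound of 3 counts covers counting error only. Genes were named if they carried a gene symbol or were among the 12 largest control ratios, the 8 highest leaf 6 FPKM values, the 3 strongest calls of a comparison and direction or the 5 clearest misses of a step, and at most 2 without a symbol were shown. Beside these, LOC100284823 was added after its values were seen, as were 2 sets of left-out libraries. The members and lists were chosen with earlier results of these data known.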

Additional observations from a re-analysis of the deposited data

Results flagged for a closer look

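In 12 of 108 groups of 6 libraries examined, over the summed share and 12 named members in leaves 5 and 6, 1 library lay far from the others. Chance gives about 1 group in 20 for normal values in independent groups. These groups share libraries, so that rate is only a rough guide. In leaf 6 ZmPep3 library 6 was the one apart for 3 members: pcr1 was high at 437 CPM, while BX14 was low at 404 CPM and wip1 low at 154 CPM. HAC 30 min library 6 was high for xth1 in leaf 5 (365 CPM) and leaf 6 (825 CPM), for Ann9 in leaf 5 (30.7 CPM) and leaf 6 (115 CPM), and for EXPA5 in leaf 5 (41.9 CPM). The others were single cases in leaf 5: EXPA5 at 43.5 CPM in ZmPep3 library 6, pcr1 at 91.8 CPM in HAC 30 min library 1 and 69 CPM in HAC 2 h library 5, and Laccase-17 at 12.4 CPM in HAC 2 h library 6. In leaf 5 ZmPep3 library 6, GB1, which is not among the flagged values, had 91.8 CPM. Whether these libraries differ in material or in handling was not tested.

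In some members a change within leaf 6 differed from that within leaf 4, by the interaction tests given above. Most members had few counts in leaf 4. For HAC at 2 h minus 30 min, 5 members had the higher change in leaf 6 and 20 the lower. These are 2.5% and 10% of members, against 6.06% and 6.83% of all genes. Ann9 was at 2.18 and gar2 at -2.12 on the log2 scale. For ZmPep3 minus HAC, 17 members had the higher difference in leaf 6 and 11 the lower. These are 8.5% and 5.5% of members, against 11.3% and 5.64% of all genes. Among them were lac5 at 2.82, gar2 at 2.24, ZmMYB42 at -1.92, Ann9 at -3.13 and LOC100284823 at -3.41. The value of lac5 did not pass under 5 of the 10 alternatives (2.73 to 2.82). In leaf 4, lac5 had 0 to 0.0679 CPM after ZmPep3 and 0 to 0.484 CPM after HAC for 2 h.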

How the results depend on the processing

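Of 255 comparisons of the members' counts and of the choice of members with an alternative, 247 stayed within 1.5 times the value reported. Counts of members rising at both steps ran from 190 to 196 over all 10 alternatives. DESeq2's Wald test moved 4 counts. In leaf 4, 31 members were higher and 8 lower at 2 h than at 30 min of HAC. For leaf 6 minus leaf 4, 35 had the lower time difference and 26 the higher agent difference. DESeq2 was run on 31866 genes without the low-count filter. Whether calls over all genes grew likewise is not given here. Without leaf 4 HAC 30 min libraries 5 and 6, 2 members were lower at 2 h in leaf 4, and 3 had the higher time difference. With all 72 libraries that number was also 3. Without the filter, 2 members were higher after ZmPep3 than after HAC in leaf 6. The cause was not tested. Library totals in place of TMM shifted the median of all genes for leaf 5 over leaf 4 to -0.06, -0.29 and -0.27 on the log2 scale after ZmPep3, HAC for 30 min and HAC for 2 h.

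Of 216 same-number pairs of libraries, 16 correlated above 0.1 in their deviations from group means (median 0.0127). Most of these pairs cross treatments, so whether leaves of the same number within a treatment were paired was not tested. With a replicate block, 190, 193 and 193 members rose at both steps after ZmPep3, HAC for 30 min and HAC for 2 h. Of 1710 comparisons of named calls with an alternative, 1686 stayed past the threshold, 24 did not and 0 reversed. Other choices of the 200 shared 180 to 193 members with those described. Depth limits leaf 4, where most members had few counts.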
